A study of Mus musculus with 12 samples.

Results

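The genes described here encode the later steps of mitochondrial β-oxidation and the transfer of its electrons to the respiratory chain: Hadha, Hadhb, Hadh, Echs1, Acaa2, Eci1, Decr1, Etfa, Etfb and Etfdh. They were taken by symbol from the count table, with no rule on their values, but were chosen with earlier results of these data known. All 10 of 10 were listed, among 24108 genes in all. All 10 also passed the filter on low counts, which kept 13745 genes. The libraries are bulk RNA-seq of neural progenitor cells (NPCs) from the subventricular zone of C57BL/6 mice aged P9 to P12, in 4 groups of 3. The p53+/+ NPCs carried functional p53, and the p53-/- NPCs were made from p53LoxP/LoxP NPCs by an adenovirus that expresses Cre under the CMV promoter, with an empty adenovirus for controls, so that deletion took place in culture. NPCs grew alone on laminin-coated plates, or in co-culture on a monolayer of brain microvascular endothelial cells (bmvECs), for 48 h, and co-cultured NPCs were lifted off by selective trypsinization. Each group held 1 library from each of 3 experiments, named 17_9, 25_9 and 1_10, and values per library are given below in that order. Levels are CPM, the counts of a gene relative to the total of its library after TMM scaling. A gene is said to have risen or fallen at an adjusted p under 0.05 in the quasi-likelihood F test of edgeR over all 13745 genes, and differences are log2 fold changes ± SE.

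In β-oxidation, a fatty acid bound to coenzyme A is shortened in repeated rounds inside the mitochondrion. An acyl-CoA dehydrogenase opens each round, a hydratase adds water, a 3-hydroxyacyl-CoA dehydrogenase oxidizes the product, and a thiolase releases acetyl-CoA. For long chains the later reactions are carried out by the trifunctional protein, whose α subunit is encoded by Hadha and β subunit by Hadhb. Shorter chains are handled by the soluble enzymes of Echs1, Hadh and Acaa2, and the products of Eci1 and Decr1 bring unsaturated fatty acids into the same route. The acyl-CoA dehydrogenases pass their electrons to the electron transfer flavoprotein (ETF), a dimer of the Etfa and Etfb products, and Etfdh encodes the enzyme that hands them on to ubiquinone.

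Hadha and Hadhb lie head to head on chromosome 5, so the sequence between them is shown together with the upstream sequences of Etfa and Etfb, which encode the other subunit pair but lie on chromosomes 9 and 7. The RefSeq start sites of Hadha and Hadhb (GRCm38.p6) were 273 bases apart, and their 300-base promoter windows shared 228 bases. Each sequence below is the part of the 250 bases before the start that is covered by no GENCODE exon, written 5′ to 3′ on the strand of the named gene. Capitals mark a GC box (GGGCGG, or CCGCCC on the other strand) or a CCAAT box (CCAAT, or ATTGG).
Hadhb, plus strand, chr5:30155163-30155247: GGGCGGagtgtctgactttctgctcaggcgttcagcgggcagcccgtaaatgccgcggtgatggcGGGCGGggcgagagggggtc
Etfa, minus strand, chr9:55512244-55512493: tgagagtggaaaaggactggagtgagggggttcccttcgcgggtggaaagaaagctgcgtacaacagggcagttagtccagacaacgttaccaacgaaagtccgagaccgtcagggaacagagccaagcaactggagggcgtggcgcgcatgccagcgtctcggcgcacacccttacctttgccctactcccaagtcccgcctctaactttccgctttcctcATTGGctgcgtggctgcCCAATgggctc
Etfb, plus strand, chr7:43443822-43444071: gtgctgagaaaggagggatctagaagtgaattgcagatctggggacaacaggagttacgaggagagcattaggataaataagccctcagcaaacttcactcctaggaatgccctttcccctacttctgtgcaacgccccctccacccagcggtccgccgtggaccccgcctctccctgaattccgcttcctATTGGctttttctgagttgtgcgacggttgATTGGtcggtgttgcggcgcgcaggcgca

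The printed Hadhb sequence held 2 GC boxes, of which 1 lay whole within the bases shared with the Hadha window, and no CCAAT box. The Etfa and Etfb sequences held 2 CCAAT boxes each, within 59 bases of the start. Promoter windows of 8 of the 10 genes were used, and those of Acaa2 and Decr1 were not analysed here. A GC box lay in 7 of these 8 windows, against 35.7% of 32851 mouse promoters of the same length, and a CCAAT box in 4, against 37.4%. The hexamer AGGTCA, recognized by nuclear receptors, lay in the Echs1 window alone, against 16.3% of all promoters. Its direct repeat with a 1-base spacer (AGGTCANAGGTCA), the arrangement bound by PPARα with RXR, lay in 0 of 8 windows and in 0.0396% of all promoters, and TCAAGGTCA, the extended site of estrogen-related receptors, in 0 of 8 and in 0.423%. A p53 response element, taken as a pair of its decamers up to 13 bases apart, was in 0 of 8 windows and in 0.0731% of all promoters. All motifs were searched on both strands, the longer motifs contain the hexamer, and a match is a description of the sequence only.

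Read depth was alike across the series, with a total of 16509710 to 22245224 counts in each library. Trp53 fell in p53-/- NPCs, with a log2 fold change of -2.71 alone and -2.01 in co-culture, and so did Cdkn1a, a p53 target, at -4.74 and -4.44. All 10 markers of neural stem and astroglial cells were detected in every library, and in co-culture of either genotype 5 of them rose. Gfap, an astroglial filament protein, rose by 4.55 and 4.59 on the log2 scale in p53+/+ and p53-/- NPCs, and Aqp4, a water channel, by 2.65 and 2.81. Of the same list, 2 fell in p53+/+ and 3 in p53-/- co-culture, among them Nes (-0.96 and -0.66). The neuroblast gene Dcx, at most 1.76 CPM in any library, rose with p53 loss by 1.91 alone and 3.03 in co-culture, where 2 of 4 neuroblast markers rose in each culture. Of 14 endothelial markers, all 14 rose in co-culture of either genotype: their summed level was 15.6 to 20.8 CPM in the 6 libraries of NPCs alone, 116 to 186 in p53+/+ co-cultures and 104 to 126 in p53-/- co-cultures. Cdh5, a junction protein of endothelial cells, was at 0 in 3 libraries, all of NPCs alone. Of 6 microglial markers, P2ry12 alone passed the filter, and the 6 summed to at most 5.46 CPM in any library. The 10 mural and fibroblast markers summed to 692 and 1228 CPM in the p53+/+ and p53-/- alone libraries of experiment 17_9, mainly through the contractile genes Acta2 and Tagln, against 84.6 to 157 CPM in the other 10 libraries. These alone libraries stand apart, and each count below is also given without that experiment where it matters.

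In p53+/+ NPCs alone, the members differed in level when CPM was divided by the length of the principal transcript. Hadhb stood highest at 145 ± 11.9 CPM per kb (SD, n = 3), followed by Etfa at 89.8 ± 15.1, Hadha at 78.9 ± 1.54, Hadh at 78.6 ± 3.10 and Etfb at 73.3 ± 2.81. Echs1 (65.6 ± 2.88 CPM per kb), Etfdh (60.9 ± 9.11) and Acaa2 (58.3 ± 3.49) came next. The enzymes for unsaturated fatty acids were lowest per length, Eci1 at 33.1 ± 3.50 and Decr1 at 19.9 ± 2.77 CPM per kb. In this order, neighbours among Etfa, Hadha, Hadh and Etfb differed by less than their summed SDs, as did neighbours among Echs1, Etfdh and Acaa2, whereas Hadhb, Eci1 and Decr1 were set off from their neighbours by more. Hadhb was also the highest and Decr1 the lowest of the 10 genes per length in each of the other 3 groups.

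**Figure D1:**
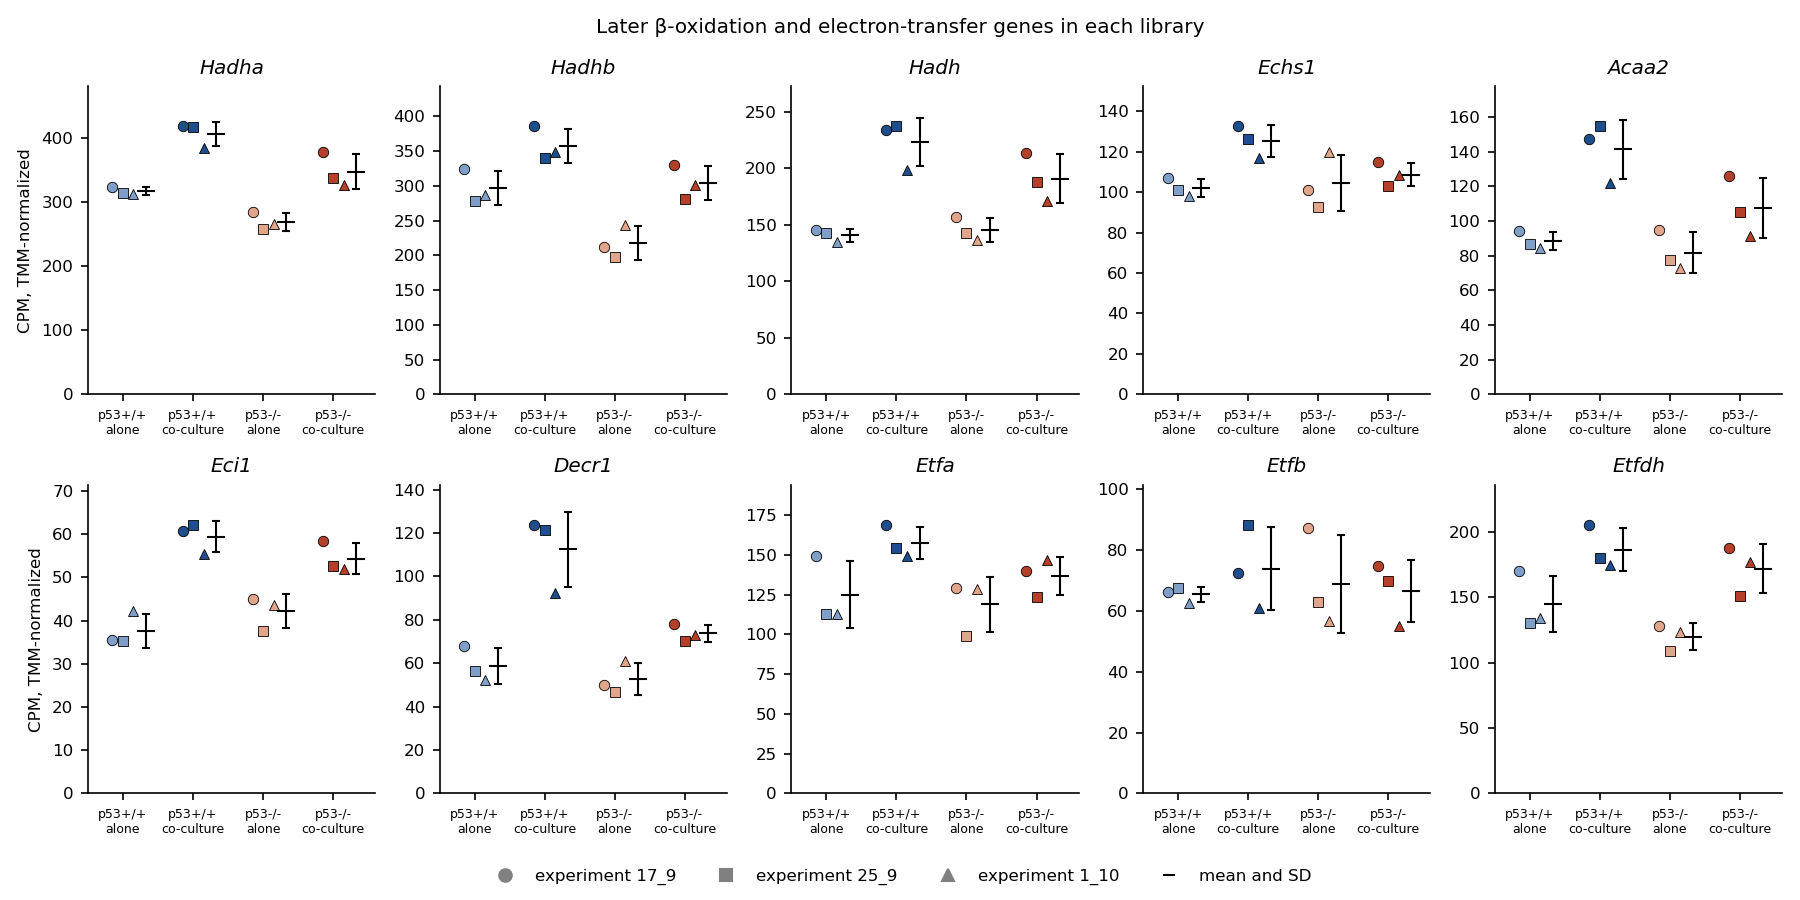
CPM (TMM-normalized, y axis from 0) of the 10 genes in each of the 12 libraries, by group on the x axis, with marker shapes for the 3 experiments and the mean and SD of each group (n = 3) beside the points. All p53+/+ co-culture points lie above all p53+/+ alone points for 9 genes, and Etfb is the exception.

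The first comparison asks how contact with the endothelial niche cells changes these genes in p53+/+ NPCs. Of the 10 genes, 6 rose in co-culture (Decr1, Acaa2, Hadh, Eci1, Etfdh and Hadha) and 0 fell, where 21.2% of all genes tested rose and 18.3% fell. The co-culture libraries lay wholly above the alone libraries for 9 of the 10, as they did for 27.9% of all genes tested. The median log2 fold change of the members was 0.36, against 0.0005 over all genes tested. Largest was the rise of Decr1, the dienoyl-CoA reductase, at 1.91-fold. In the 2 co-culture comparisons 0 members were lower, and in the 2 comparisons of genotype 0 were higher, at an unadjusted p under 0.05 in edgeR or by DESeq2.

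Decr1 stood at 67.9, 56.2 and 52.1 CPM in p53+/+ NPCs alone and at 124, 121 and 92.5 CPM in co-culture. Every co-culture library was above every alone library, with the co-culture of experiment 1_10 the lowest of its group. Decr1 rose by 0.94 ± 0.15 on the log2 scale (adjusted p = 0.000398). Eci1, the isomerase that shifts an unsaturated bond to where the hydratase can act, was at 35.5, 35.2 and 42.2 CPM alone and at 60.8, 62.1 and 55.4 CPM in co-culture. The groups did not overlap, and Eci1 rose by 0.66 ± 0.12 (adjusted p = 0.000904). Both genes for unsaturated fatty acids thus rose in p53+/+ co-culture.

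Among the enzymes of shorter chains, Hadh, the 3-hydroxyacyl-CoA dehydrogenase, was at 145, 142 and 134 CPM alone and at 234, 237 and 198 CPM in co-culture. Its groups were well apart, and it rose by 0.67 ± 0.12 (adjusted p = 0.000797). Acaa2, the thiolase of the last step, was at 94.3, 86.6 and 84.2 CPM alone and at 147, 155 and 122 CPM in co-culture. The lowest co-culture library, again that of experiment 1_10, was above the highest alone library, and Acaa2 rose by 0.68 ± 0.15 (adjusted p = 0.00302). Echs1, the hydratase of this route, was at 107, 101 and 98.2 CPM alone and at 133, 126 and 117 CPM in co-culture. Its groups did not overlap either, but the difference of 0.29 ± 0.11 had an adjusted p of 0.0555.

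For the trifunctional protein, Hadha was at 324, 314 and 313 CPM alone and at 418, 416 and 384 CPM in co-culture. The alone libraries were within a narrow range, and Hadha rose by 0.36 ± 0.10 (adjusted p = 0.0121). Hadhb was at 324, 278 and 287 CPM alone and at 386, 339.5 and 348 CPM in co-culture. The alone library of experiment 17_9 came close to the co-cultures, and the difference of 0.27 ± 0.12 had an adjusted p of 0.0818.

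In the electron-transfer arm, Etfdh was at 169.7, 131 and 134 CPM alone and at 205, 179.8 and 174 CPM in co-culture. The groups were separated by a small margin, and Etfdh rose by 0.37 ± 0.13 (adjusted p = 0.0442). Etfa was at 149, 113 and 113 CPM alone and at 169, 155 and 149.7 CPM in co-culture, so that the alone library of experiment 17_9 nearly reached the lowest co-culture. The difference was 0.34 ± 0.14 with an adjusted p of 0.0785. Etfb was at 66.1, 67.5 and 62.7 CPM alone and at 72.5, 88.2 and 61.0 CPM in co-culture. Its groups overlapped, with a difference of 0.18 ± 0.18 (adjusted p = 0.458).

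In a fit blocked by experiment, 9 of the 10 genes rose in p53+/+ co-culture, where 26.2% of all genes rose: the adjusted p was 0.0331 for Hadhb, 0.0342 for Echs1 and 0.0208 for Etfa. Without experiment 25_9 only Decr1 rose, so 1 gene, and without experiment 17_9 it was 6. Over all genes tested, 1209 of 13779 and 2414 of 13680 rose in these fits, against 2908 of 13745 with all libraries. The Etfdh call was lost in 11 of the 15 fits that left out 1 library or 1 experiment (adjusted p from 0.0134 to 0.245). It held without experiment 17_9, and without the 17_9 library of either genotype alone or the 25_9 library of p53-/- co-culture. The endothelial marker sum moved with the members, at 17.3, 19.7 and 17.3 CPM in the 3 alone libraries and 186, 155 and 116 CPM in the 3 co-cultures. The sum of the neural stem and astroglial markers moved the same way, from 9453 to 10559 CPM alone to 20922 to 29141 CPM in co-culture. The part of either in these differences was not tested, and in bulk RNA more cells of a type and more RNA per cell cannot be told apart.

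**Figure D2:**
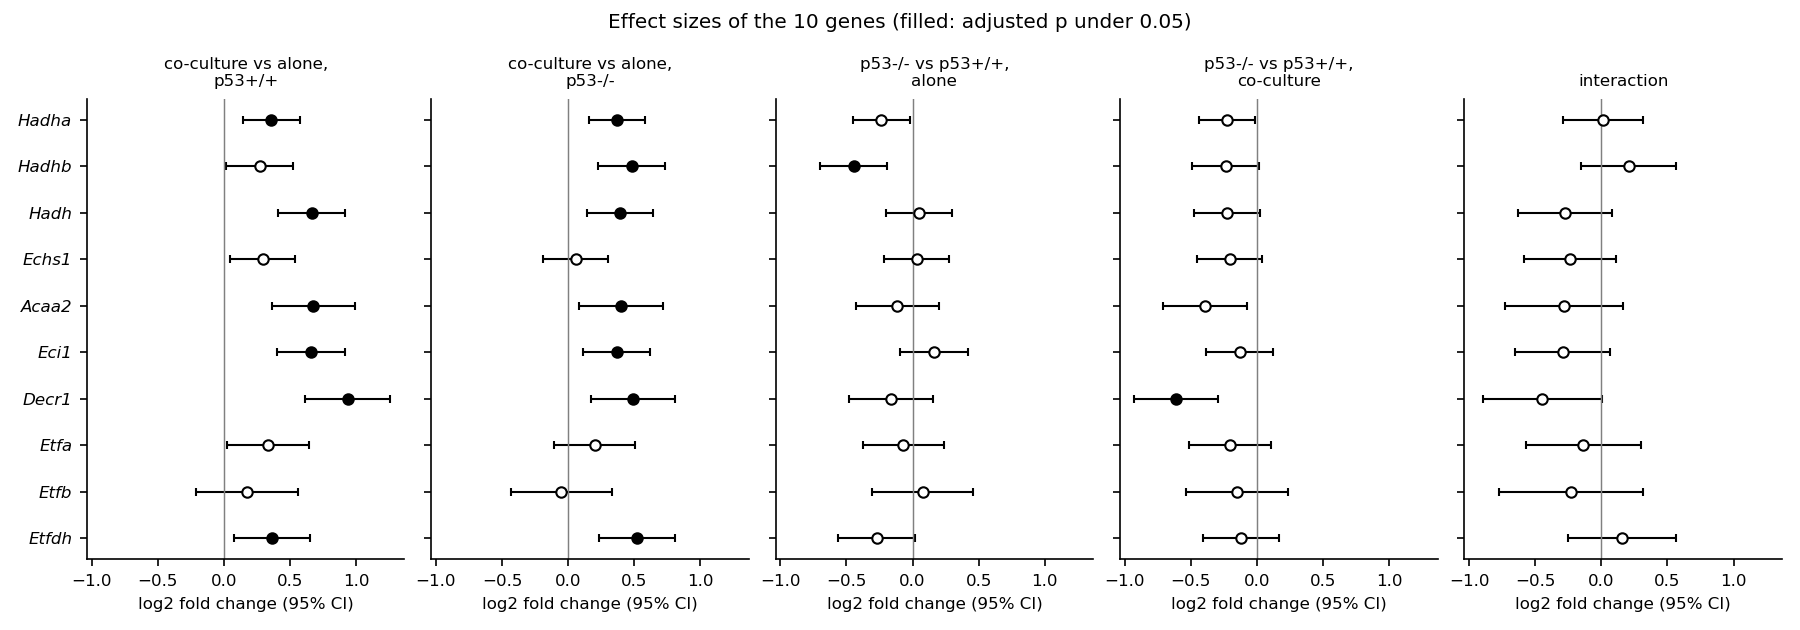
Log2 fold change of each gene (x axis) with its 95% confidence interval from the edgeR fit in the 5 comparisons, with filled points for an adjusted p under 0.05. In co-culture 6 genes are filled in p53+/+ and 7 in p53-/-, p53 loss has 1 filled gene alone (Hadhb) and 1 in co-culture (Decr1), and the interaction has 0.

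The second comparison is co-culture against alone in p53-/- NPCs, and shares no library with the first. Here 7 genes rose (Etfdh, Decr1, Hadhb, Acaa2, Hadh, Hadha and Eci1) and 0 fell, where 18.8% of all genes rose and 17% fell. The median log2 fold change of the members was 0.38, against -0.01 over all genes tested. The co-culture libraries lay wholly above the alone libraries for 6 genes, against 23.3% of all genes tested.

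Etfdh had the largest rise in this genotype. It was at 128, 109 and 123 CPM alone and at 188, 151 and 177 CPM in co-culture, with no overlap, and rose by 0.52 ± 0.13 (adjusted p = 0.00956). Its partners did not pass the test: Etfa was at 129.5, 99.1 and 129 CPM alone and at 139.8, 124 and 147 CPM in co-culture, with overlapping groups and a difference of 0.20 ± 0.14 (adjusted p = 0.294). Etfb was at 87.2, 63.0 and 56.7 CPM alone and at 74.7, 69.9 and 55.1 CPM in co-culture, a difference of -0.05 ± 0.18 (adjusted p = 0.848). Within each culture of p53-/- NPCs, Etfb was highest in experiment 17_9 and lowest in experiment 1_10.

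Hadhb was at 211, 197 and 244 CPM alone and at 329, 280.4 and 301 CPM in co-culture. It rose by 0.48 ± 0.12 (adjusted p = 0.00744) with no overlap. Hadha was at 284, 257 and 265 CPM alone and at 378, 338 and 326 CPM in co-culture, and rose by 0.37 ± 0.10 (adjusted p = 0.0120). Both subunits of the trifunctional protein thus rose in p53-/- co-culture, with all 3 pairs of libraries in that direction for each.

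Hadh was at 157, 143 and 137 CPM in p53-/- NPCs alone and at 214, 187 and 171 CPM in co-culture, and rose by 0.39 ± 0.12 (adjusted p = 0.0197). Acaa2 was at 94.9, 77.3 and 72.6 CPM alone and at 126, 105 and 91.4 CPM in co-culture. The co-culture of experiment 1_10 was below the alone library of experiment 17_9, and Acaa2 rose by 0.40 ± 0.15 (adjusted p = 0.0488). Echs1 was at 101, 92.8 and 119.8 CPM alone and at 115, 103 and 108 CPM in co-culture, with overlapping groups and a difference of 0.06 ± 0.11 (adjusted p = 0.731). Unlike the other enzymes of this route, Echs1 had opposite signs among its 3 pairs.

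Decr1 was at 49.9, 46.9 and 60.9 CPM alone and at 77.8, 70.3 and 73.0 CPM in co-culture, and rose by 0.49 ± 0.15 (adjusted p = 0.0211). Eci1 was at 45.1, 37.7 and 43.6 CPM alone and at 58.5, 52.6 and 52.0 CPM in co-culture, and rose by 0.37 ± 0.12 (adjusted p = 0.0272). In neither gene did the groups overlap.

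The number of genes that rose in p53-/- co-culture depended on single libraries. It was 2 without the co-culture library of experiment 17_9 and 4 without the alone library of either experiment 25_9 or experiment 1_10. Over all genes tested, 1743 of 13864 rose in the first of these fits, and 2406 of 13943 and 2160 of 13972 in the others. The Acaa2 call was lost in 11 of the 15 fits that left out 1 library or 1 experiment (adjusted p from 0.0183 to 0.255). It held without the 17_9 library of p53-/- NPCs alone, the 1_10 library of p53-/- co-culture, or the 25_9 or 1_10 library of p53+/+ co-culture. The count of genes was 1 without all of experiment 17_9, 0 without experiment 25_9, and 3 when only the 6 p53-/- libraries were fitted. Fewer genes rose over the whole series too, at 1704 of 13680, 1343 of 13779 and 2117 of 13361, against 2586 of 13745 in the main fit. The endothelial markers summed to 15.6, 20.8 and 15.8 CPM in p53-/- NPCs alone and to 126, 114 and 104 CPM in co-culture, and the neural stem and astroglial markers to 8430 to 9155 CPM alone and 16188 to 19270 CPM in co-culture. The part of either in the differences was not tested.

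The next question was what p53 loss does to these genes in NPCs alone. Of the 10, only Hadhb fell and 0 rose, where 4.27% of all genes fell and 2.02% rose. Hadhb, at 324, 278 and 287 CPM in p53+/+ NPCs against 211, 197 and 244 CPM in p53-/- NPCs, fell by 0.45 on the log2 scale (SE 0.12, adjusted p = 0.0414) with no overlap. Hadha was also below in every p53-/- library, at a difference of -0.24 ± 0.10 (adjusted p = 0.169), as was Etfdh, at -0.27 ± 0.13 (adjusted p = 0.237), so that 3 genes did not overlap, against 12.4% of all genes tested that were wholly lower. By DESeq2 blocked by experiment both fell, Hadha with an adjusted p of 0.0334 and Etfdh of 0.0312, and 10.7% of all genes fell in that fit. The other 7 genes overlapped between the genotypes, with differences from -0.16 for Decr1 to 0.16 for Eci1, and the median of the 10 was -0.09. The Hadhb call rested on few libraries. It was lost in 10 of the 15 fits that left out 1 library or 1 experiment, with adjusted p from 0.0245 to 0.318. These were the fits without any of the 3 p53+/+ alone libraries, without the 17_9 or 25_9 library of p53-/- NPCs alone, without the p53-/- co-culture of experiment 25_9 or the p53+/+ co-culture of experiment 1_10, and without any of the 3 experiments. Endothelial marker sums overlapped here, at 17.3 to 19.7 CPM in p53+/+ and 15.6 to 20.8 CPM in p53-/- NPCs, whereas those of the neural stem and astroglial markers (ranges above) were lower in all p53-/- libraries. The median log2 fold change of the latter 10 markers was -0.14, and 4 of the 10 were higher in p53-/- NPCs. Their part in the Hadhb difference was not tested.

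In co-culture, all 10 genes had lower fitted levels in p53-/- than in p53+/+ NPCs, from -0.61 for Decr1 to -0.12 for Etfdh, with a median log2 fold change of -0.22 against 0.02 over all genes tested. Decr1 alone passed the test, so that 1 gene fell and 0 rose, where 4.93% of all genes fell and 3.24% rose. Decr1 was at 124, 121 and 92.5 CPM in p53+/+ and at 77.8, 70.3 and 73.0 CPM in p53-/- co-cultures, without overlap, and fell by 0.61 on the log2 scale (SE 0.15, adjusted p = 0.0241). Acaa2 was at 147, 155 and 122 CPM in p53+/+ and at 126, 105 and 91.4 CPM in p53-/- co-cultures. Its groups overlapped by 1 library on each side, with a difference of -0.39 ± 0.15 (adjusted p = 0.115), and in the fit blocked by experiment it fell (adjusted p = 0.0146), which brought the count to 2, where 10.9% of all genes fell in that fit. By DESeq2 with the same block Hadha fell as well (adjusted p = 0.0435), for a count of 3 where 11.6% of all genes fell.

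In co-culture the p53-/- libraries lay wholly below the p53+/+ libraries for 5 genes (Hadha, Hadhb, Echs1, Decr1 and Etfa), against 16.9% of all genes tested. Of these, Hadha had a difference of -0.23 ± 0.10 (adjusted p = 0.175) and Hadhb of -0.24 ± 0.12 (adjusted p = 0.229). Those of Echs1 and Etfa were both -0.20, with adjusted p of 0.289 and 0.399. The Decr1 call was lost without the p53+/+ co-culture of experiment 17_9 or 25_9, the p53-/- co-culture of experiment 25_9 or 1_10, or all of experiment 17_9 or 25_9, and its adjusted p ranged from 0.0105 to 0.405 over the 15 fits. The endothelial marker sum was also lower in p53-/- co-cultures, at 126, 114 and 104 CPM against 186, 155 and 116 CPM, with a median log2 fold change of -0.34 over the 14 markers. So was that of the neural stem and astroglial markers, at 16188 to 19270 CPM against 20922 to 29141 CPM. The median log2 fold change of these 10 markers was -0.19, and 4 of the 10 were higher in p53-/- co-culture. The part of either in the Decr1 difference was not tested.

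The interaction asks whether the effect of co-culture differs between the genotypes. None of the 10 genes passed the test in edgeR or in DESeq2. At an adjusted p under 0.05 in edgeR, 0.0364% of all genes were lower and 0% higher. Of the 10, 0 had an unadjusted p under 0.05 in edgeR, a rule for which the share of all genes is not given. Decr1 came closest, with a co-culture effect smaller in p53-/- NPCs by -0.45 ± 0.21 (95% interval -0.90 to 0.00, adjusted p = 0.705 in edgeR, unadjusted 0.0508). The interaction was negative for 7 genes and positive for Hadha (0.01), Hadhb (0.21) and Etfdh (0.16). The intervals of all 10 included 0, and the widest was that of Etfb, from -0.77 to 0.32. A different response of these genes in the 2 genotypes was therefore not detected, which does not show that the responses were alike.

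The ratio of the subunits of a complex does not depend on library scaling. The log2 ratio of Hadha to Hadhb, from CPM not divided by length, was 0.10 ± 0.09 (SD, n = 3) in p53+/+ NPCs alone and 0.18 ± 0.10 in co-culture. In p53-/- NPCs it was 0.31 ± 0.17 alone and 0.19 ± 0.08 in co-culture. By an exact two-sided permutation test within genotype, co-culture moved it by -0.01 (p = 0.825, adjusted p = 0.825 over 4 ratio tests), and within culture p53 loss moved it by 0.11 (exact permutation p = 0.185, adjusted p = 0.39). The log2 ratio of Etfa to Etfb was 0.92 ± 0.23 in p53+/+ NPCs alone and 1.11 ± 0.26 in co-culture, and 0.80 ± 0.33 and 1.05 ± 0.32 in p53-/- NPCs. Co-culture moved it by 0.22 (exact permutation p = 0.195, adjusted p = 0.39), with the ratio higher in 6 of 6 pairs of the same experiment and genotype. Permuted within those pairs, it had an exact p of 0.0312, the smallest that 64 arrangements can give (adjusted p = 0.125 over the 4 ratio tests). Within culture, p53 loss moved it by -0.09 (exact permutation p = 0.595, adjusted p = 0.793). With 400 arrangements the smallest p was 0.005.

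**Figure D3:**
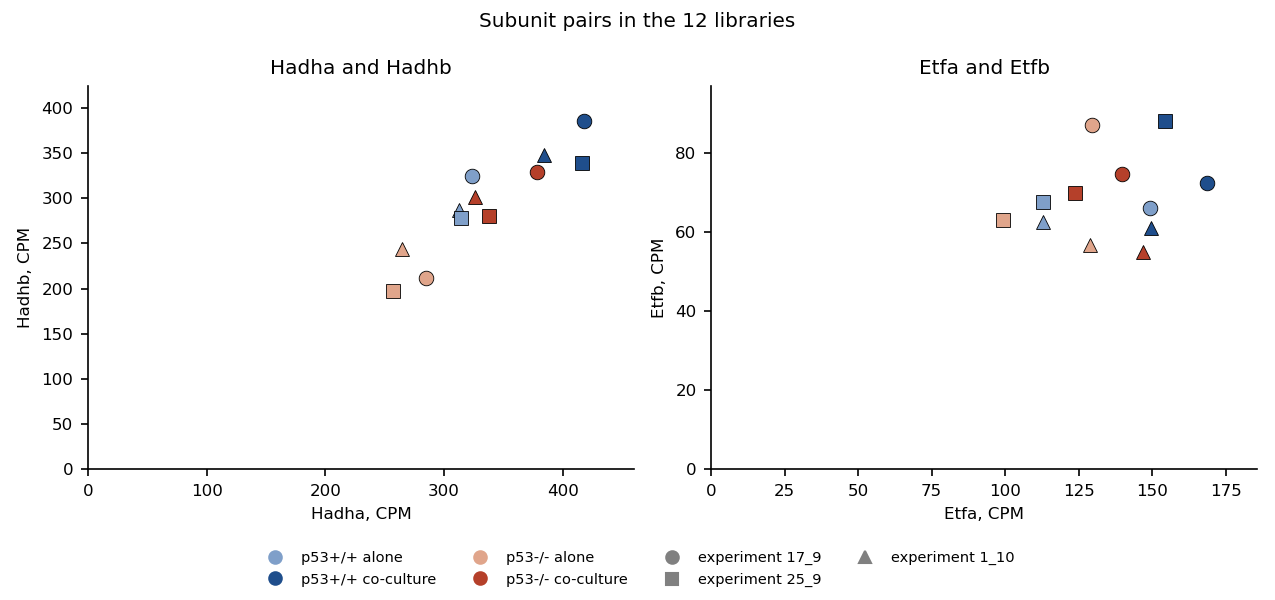
CPM of Hadhb against Hadha (left) and of Etfb against Etfa (right) in the 12 libraries, both axes from 0, colored by group and shaped by experiment. Hadha and Hadhb lie along a line (r = 0.911 on log2 CPM), while Etfa and Etfb are scattered (r = 0.219).

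Over the 12 libraries, which share the group differences above, Pearson's r of log2 CPM in the 45 pairs of members ranged from 0.067 to 0.959 with a median of 0.764. Hadh and Acaa2, successive enzymes of the shorter-chain route, were most alike (r = 0.959), and Hadha and Hadhb reached 0.911. Etfb stood apart, with r from 0.067 with Hadhb to 0.594 with Acaa2, and 0.219 with its partner Etfa. These values are descriptions over 12 libraries that are not independent of group.

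By the same measure over all tested genes outside the list, the genes most like Hadha were Nfs1 (r = 0.994), a mitochondrial cysteine desulfurase, and Yipf2 (r = 0.990). For Hadhb they were Vwa5a (r = 0.980) and Tcaim (r = 0.979). For Hadh they were Slc25a33 (r = 0.994), a mitochondrial nucleotide carrier, and Lgmn (r = 0.991), a lysosomal protease. Echs1 was nearest to Cd302 (r = 0.946) and 1110012L19Rik (r = 0.943). Acaa2 was nearest to Tmem66 (r = 0.988) and Ech1 (r = 0.986), a dienoyl-CoA isomerase of mitochondria and peroxisomes. Eci1 was nearest to Echdc2 (r = 0.968), a relative of the hydratases, and Gsdmd (r = 0.967), a pore-forming protein of inflammatory cell death. Decr1 was nearest to Akr1e1 (r = 0.981) and Dhrs4 (r = 0.976), both reductases. Etfa was nearest to Ccdc71l (r = 0.966) and Atp6v1d (r = 0.958), a subunit of the vacuolar proton pump. For Etfb, Eno1b (r = 0.948), listed under an enolase symbol, is given. Etfdh was nearest to Mttp (r = 0.971), a lipid transfer protein, and Fam228b (r = 0.969).

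The steps on either side of these genes were read from lists of the pathway. Over all genes tested, 21.2% rose in p53+/+ and 18.8% in p53-/- co-culture. In the carnitine shuttle, which brings fatty acids into the mitochondrion, 4 of 6 tested genes rose in co-culture in each genotype and 0 fell. Cpt2, the carnitine palmitoyltransferase of the inner membrane, rose by 0.84 ± 0.10 in p53+/+ (adjusted p = 6.58e-05) and by 0.72 ± 0.10 in p53-/- NPCs (adjusted p = 0.000272). With p53 loss 1 gene of this list fell alone and 3 fell in co-culture, where 4.27% and 4.93% of all genes tested fell. Cpt1c, a brain member of the carnitine palmitoyltransferase family, fell in both (log2 fold change -1.77 alone and -1.57 in co-culture). It was the only call alone, and entry of fatty acids into the mitochondrion was not measured by these counts. Cpt2 and Slc25a20, the carnitine carrier, fell in co-culture (-0.46 and -0.40).

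Acyl-CoA dehydrogenases open each round and feed ETF, but that role was not examined for each gene listed here. Of 8 listed genes of this family, 5 rose in co-culture in each genotype and 0 fell. The shares of all genes tested that rose were 21.2% in p53+/+ and 18.8% in p53-/- co-culture. Acadvl, for very long chains, rose by 0.76 ± 0.14 (adjusted p = 0.000837) and Acadm, for medium chains, by 0.62 ± 0.13 (adjusted p = 0.00201) in p53+/+ NPCs. With p53 loss, Acad11 fell alone (log2 fold change -0.98), and 3 fell in co-culture, namely Acad11 (-0.80), Acadm (-0.51) and Acadvl (-0.50). Over all genes tested, 4.27% fell with p53 loss alone and 4.93% in co-culture. Of 6 tested dehydrogenases of amino acid and related routes that also feed ETF, 3 rose in co-culture in each genotype and 2 fell with p53 loss alone, with 0 called by edgeR for p53 loss in co-culture, where 3 were lower at an unadjusted p under 0.05 and 2 by DESeq2. D2hgdh, which oxidizes D-2-hydroxyglutarate, rose by 1.11 ± 0.15 in p53+/+ (adjusted p = 0.000117) and by 0.99 ± 0.15 in p53-/- NPCs (adjusted p = 0.000384).

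Around and downstream of ETF, most genes did not pass the test. For comparison, 21.2% of all genes tested rose in p53+/+ co-culture and 18.3% fell, and 18.8% rose and 17% fell in p53-/- co-culture. In ETF assembly and FAD supply, 1 of 6 tested genes rose in p53+/+ and 2 in p53-/- co-culture, among them Lyrm5 (now Etfrf1), a regulator of ETF, by 0.66 ± 0.17 (adjusted p = 0.00940) and 0.69 ± 0.17 (adjusted p = 0.00863). In coenzyme Q synthesis, which makes the ubiquinone that Etfdh reduces, 4 of 13 genes rose and 1 fell in p53+/+ co-culture, and 2 rose and 2 fell in p53-/- co-culture. Coq9 rose by 0.69 ± 0.12 in p53+/+ NPCs (adjusted p = 0.000637), and Pdss1, which makes the side chain, fell (log2 fold change -0.78, adjusted p = 0.0156). In complex III and cytochrome c, 1 of 10 genes rose in p53+/+ co-culture, the Rieske subunit Uqcrfs1 by 0.32 ± 0.11 (adjusted p = 0.0329), and in p53-/- co-culture 0 of 10 were called by edgeR or DESeq2, with 0 at an unadjusted p under 0.05.

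Among 10 mitochondrial relatives of the members, 6 rose in p53+/+ co-culture, and 4 rose and 1 fell in p53-/- co-culture. Echdc2 rose by 1.02 ± 0.18 (adjusted p = 0.000814) in p53+/+ NPCs. Of 9 tested peroxisomal counterparts, 7 rose in p53+/+ and 5 in p53-/- co-culture, with 0 lower. Among 7 PPAR regulators, 2 rose in each genotype, where 21.2% of all genes tested rose in p53+/+ and 18.8% in p53-/- co-culture. Ppara, the receptor that drives genes of fatty-acid oxidation, rose in both (0.79 ± 0.29, adjusted p = 0.0466, and 1.07 ± 0.30, adjusted p = 0.0143), and its coactivator Ppargc1a rose in p53-/- co-culture (0.90 ± 0.18, adjusted p = 0.00225) and fell with p53 loss alone (-0.71, adjusted p = 0.0333).

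The median log2 fold change in p53+/+ co-culture was 0.68 for the carnitine shuttle, 0.69 for the acyl-CoA dehydrogenases, 0.36 for the members, 0.22 for coenzyme Q synthesis and 0.19 for complex III and cytochrome c. In p53-/- co-culture these medians were 0.53, 0.50, 0.38, -0.04 and 0.01. The remaining lists did not follow this order. In p53+/+ co-culture their medians were 0.48 for the other dehydrogenases that feed ETF, 0.07 for ETF assembly and FAD supply, 0.58 for the mitochondrial relatives and 0.62 for the peroxisomal counterparts. In p53-/- co-culture these were 0.49, 0.14, 0.32 and 0.41. The difference between the lists was not tested.

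**Figure D4:**
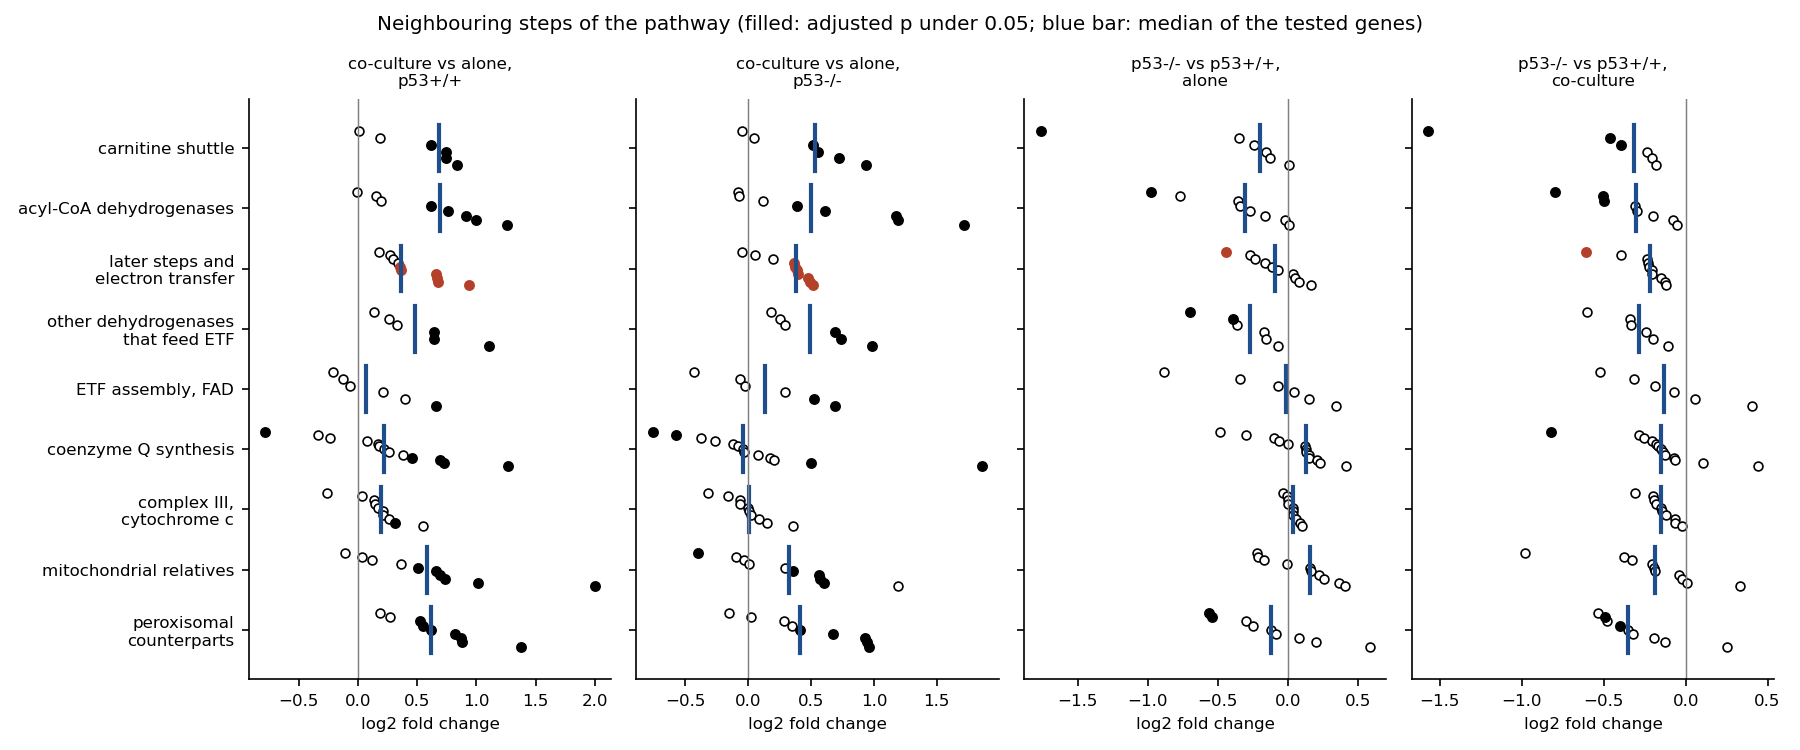
Log2 fold change (x axis) of each tested gene in 9 lists of the pathway (y axis) for 4 comparisons, with filled points for an adjusted p under 0.05, red for the 10 later-step and electron-transfer genes, and blue bars for the median of each list. The medians in p53+/+ co-culture run from 0.69 for the acyl-CoA dehydrogenases to 0.07 for ETF assembly and FAD supply.

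Some members overlap other genes in GENCODE annotation of GRCm38. Hadha overlaps Garem2 and Echs1 overlaps Paox on the opposite strand, Etfdh overlaps 4930579G24Rik on the opposite strand, and Etfb overlaps Gm45233 on the same strand. The strand setting of the counting is not given in the sources used here, so reads of such pairs may not be separated. The gene listed as Gareml (now Garem2) was at 70.7 to 219 CPM and Paox at 8.14 to 14.1 CPM across the libraries.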

How the data were processed

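RNA-seq was made from 12 libraries of NPCs in 4 groups of 3. Per the labels and the methods of the study, the authors made stranded TruSeq mRNA libraries, used TopHat2 2.0.11 for alignment to mm9, and HTSeq 0.6.1 for gene counts. The authors deposited raw counts, which were used as given. The sources used here give neither a strand setting nor an annotation version. Columns were assigned to groups by the key of the authors' supplementary table. The repeat numbers of the labels were not tied to experiment numbers, and whether experiments used separate isolations of NPCs is not stated, so p-values measure the spread between these libraries.

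Of 24108 listed genes, 18810 had a count and filterByExpr kept 13745. Counts were scaled by TMM (factors 0.961 to 1.04) and fitted with the quasi-likelihood model of edgeR 4.0.16 (R 4.3.3, limma 3.58.1), with 1 coefficient per group over all 12 libraries, in 5 comparisons. P-values were adjusted by Benjamini-Hochberg over all tested genes in each comparison, with a threshold of 0.05. Library totals were 16509710 to 22245224 counts, so genes with few counts are measured less precisely. Subunit ratios were tested by exact permutation. The fits were tested on simulated counts.

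The experiment number pairs the libraries, as that key says: residuals around the group means had a positive r in all 18 same-number pairs (0.128 to 0.618) and an r of -0.608 to 0.241 in 36 other pairs. The blocked fit is an alternative, with DESeq2 1.42.0 with and without the block, other scalings, other filters, a threshold of 0.01, only the groups compared, and fits without each library or experiment. Counts of libraries of the same group differed by 12.6 to 59.2 times the counting variance in 12 pairs, so none was a copy.

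The members and lists were chosen with earlier results of these data known. The genes named are the members, up to 3 called genes of each list and comparison with the smallest adjusted p, the 2 genes most like each member, Trp53, Cdkn1a, Ppara, Ppargc1a and the endothelial markers Pecam1 and Cdh5. The markers Nes and Tagln, and genes overlapping a member, were named beyond this rule after their values were seen, and 2 genes that the rule names are not reported here. Promoters are from RefSeq (GRCm38.p6, 250 bases before to 50 after the start) and lengths and exons from GENCODE (GRCm38), a build other than that of the counts, so no counts were placed by coordinates. Lengths are of the principal transcript. Figures were drawn with matplotlib 3.10.9. No amino acid sequence was used here.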

Additional observations from a re-analysis of the deposited data

Results flagged for a closer look

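Hadh and Eci1 drew attention because the sign of the p53 difference was shared by all pairs within each culture but opposite between the cultures. In NPCs alone the pairs of Hadh differed by 0.11, 0.0013 and 0.025 on the log2 scale, and those of Eci1 by 0.34, 0.099 and 0.047. The Hadh pair of experiment 25_9 was thus close to a tie. For Hadh, p53-/- was higher in 3 of 3 pairs alone (log2 fold change 0.05 ± 0.12) and in 0 of 3 in co-culture (-0.23 ± 0.12), a difference of -0.27 ± 0.16 between the cultures. In the interaction test of edgeR, with 3 libraries a group, that difference had an adjusted p of 0.775. For Eci1, p53-/- was higher in 3 of 3 pairs alone (0.16 ± 0.12) and in 0 of 3 in co-culture (-0.13 ± 0.12), a difference of -0.29 ± 0.17 with an adjusted p of 0.754. Neither difference passed the test, and neither gene was called by p53 loss in either culture. With the 17_9 library of p53-/- NPCs alone left out, the difference of Hadh alone was -0.0082.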

How the results depend on the processing

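The 6 genes that rose in p53+/+ co-culture ranged from 1 to 7 over fits without a library or experiment, and the 7 in p53-/- co-culture from 0 to 7. The latter count was 3 with only the groups compared and 2 at a threshold of 0.01. Over all genes tested, 2117 of 13361 and 1597 of 13745 rose under these settings. With p53 loss alone, the 1 gene that fell became 0 with no filter on low counts, with only the groups compared and at 0.01. Over all genes, 567 of 18810, 306 of 13078 and 253 of 13745 fell under these settings. With DESeq2 and the experiment number as a replicate block the count was 3, where 1472 of 13745 genes fell. Over the leave-outs it was 0 to 1. With p53 loss in co-culture, 1 became 2 with the replicate block, 3 with DESeq2 and the block and 0 at 0.01. Over all genes, 1499, 1593 and 239 of 13745 fell under these settings. Over the leave-outs the count of members was 0 to 1. The block left the other counts within 1.5 times, and by its ratio test no ratio was called. Other scalings and the minimum of 10 counts kept all counts within 1.5 times. The interaction could not be fitted with only the groups compared.

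Signs turned only in members far from the threshold. Etfb in p53-/- co-culture was 0.013 with library size alone and -0.19 to 0.15 over the leave-outs, and Echs1 with p53 loss alone was -0.0017 with only the groups compared and -0.14 to 0.11 over the leave-outs. Over the leave-outs, the log2 fold change with p53 loss alone ran from -0.23 to 0.080 for Etfa, from -0.13 to 0.16 for Etfb and from -0.0082 to 0.073 for Hadh, that of Echs1 in p53-/- co-culture from -0.024 to 0.19, and the interaction of Hadha from -0.031 to 0.092. The Hadha to Hadhb ratio in co-culture ran from -0.063 to 0.015 and the Etfa to Etfb ratio with p53 loss from -0.25 to 0.096. The causes were not tested. With 3 libraries a group, small differences may be missed, and counts of NPCs and of remaining bmvECs cannot be separated.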
